A study of Mus musculus with 2 samples.

Results

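Hepatocyte1 is the largest of 5 hepatocyte clusters in single-cell RNA sequencing of mouse liver cells. Its members here are the rows with that cluster name in both tables of the authors' comparisons between clusters, which hold 170 of 1609 genes compared with other hepatocytes and 31 of 1755 compared with all other cells. In all, 191 genes were listed for Hepatocyte1 in either table and 10 in both. The cells came from wild-type male BALB/c mice, 8 to 10 weeks old and fasted, that received intraperitoneal PBS or rIL-33 (recombinant interleukin-33, 0.5 µg) daily for 5 days. The livers were perfused with Liberase, the cells were not sorted, and each condition gave 1 droplet-based library (2 in all), with no statement on how many mice were pooled. Both tables pool the cells of both libraries, so neither the change with rIL-33 nor any spread between mice was analysed here, no test was made, and every value is the authors' pooled value without an SD. Depth, in transcripts counted (UMIs), is unknown for every cell and library, so no interval covers counting error.

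Hepatocytes make most plasma proteins, among them apolipoproteins, transport proteins and acute-phase proteins, whose production changes when cytokines such as IL-6 act through STAT3, C/EBP and NF-kB factors. They are also rich in mitochondria, in which the respiratory chain passes electrons from NADH to oxygen through complexes I, III and IV and ATP synthase uses the resulting proton gradient. The 4 genes put forward as markers of Hepatocyte1 all belong to the acute-phase response. Saa1 and Saa2 encode serum amyloid A proteins, which ride on high-density lipoprotein, Hamp encodes hepcidin, which holds back iron export, and Orm1 encodes orosomucoid, a plasma carrier of drugs and lipids. All 4 were listed for Hepatocyte1 in both tables, which does not test the label, since the markers were named from this cluster and its members are the genes listed. Of the 4 markers, 3 were detected in a smaller share of cells inside the cluster than in the other hepatocytes, as given below.

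The promoters of 3 marker genes are shown because Saa1, Saa2 and Hamp are the markers whose shares stood apart from those of the other listed genes. Saa1 (chromosome 7, 46740497 to 46742980, minus strand) and Saa2 (chromosome 7, 46751790 to 46754313, plus strand) lie head to head with 8809 bases between them, and Hamp lies on the same chromosome (30942368 to 30944032, minus strand), in the GENCODE M21 annotation of GRCm38, the assembly also called mm10. RefSeq promoters on GRCm38.p6 run from 250 bases before to 50 bases after the RefSeq start of the gene, 5′ to 3′ on the strand of the gene. They lie at chr7:46742931-46743230 for Saa1, chr7:46751583-46751882 for Saa2 and chr7:30943980-30944279 for Hamp. For Saa2 and Hamp the start used for the promoter is not the GENCODE M21 start given above. Capitals mark matches to the motifs searched.
Saa1: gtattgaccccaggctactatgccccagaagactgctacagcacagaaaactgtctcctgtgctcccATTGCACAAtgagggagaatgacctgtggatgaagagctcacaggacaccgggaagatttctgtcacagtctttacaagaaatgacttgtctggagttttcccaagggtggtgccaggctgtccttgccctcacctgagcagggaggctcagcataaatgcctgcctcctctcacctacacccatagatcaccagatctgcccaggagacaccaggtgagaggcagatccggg
Saa2: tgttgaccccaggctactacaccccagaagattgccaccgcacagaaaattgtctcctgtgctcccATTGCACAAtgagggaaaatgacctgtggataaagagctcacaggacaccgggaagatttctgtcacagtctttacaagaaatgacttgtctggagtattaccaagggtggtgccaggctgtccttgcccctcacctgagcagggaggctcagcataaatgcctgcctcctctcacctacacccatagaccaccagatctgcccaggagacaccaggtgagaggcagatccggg
Hamp: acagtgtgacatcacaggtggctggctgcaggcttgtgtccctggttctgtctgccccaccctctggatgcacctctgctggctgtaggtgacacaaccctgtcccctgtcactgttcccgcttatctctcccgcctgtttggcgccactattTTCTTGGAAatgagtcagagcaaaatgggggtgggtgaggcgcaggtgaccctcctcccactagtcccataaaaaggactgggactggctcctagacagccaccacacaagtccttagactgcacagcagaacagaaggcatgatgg
The search covered TTCNNNGAA (STAT3-type), GGNNTTTCC (NF-kB-type), TTGCGCAA and TTNNGCAAT (both C/EBP-type) on both strands. Saa1 and Saa2 each held 1 match to TTNNGCAAT, at bases -183 and -184 from the RefSeq gene start. Hamp held 1 match to TTCNNNGAA, at base -97. The first base of the gene in RefSeq is base 0, and a match is given by its first base. Among all 32851 RefSeq promoters of this length, 2.18% held TTNNGCAAT, 8.3% held TTCNNNGAA, 5.82% held GGNNTTTCC and 0.183% held TTGCGCAA. Of the 13 acute-phase genes listed for Hepatocyte1 in either table, 9 had a promoter that was searched. TTCNNNGAA occurred in 2 of these (Hamp and Fgb), TTNNGCAAT in 3 (Saa1, Saa2 and Ahsg), and GGNNTTTCC and TTGCGCAA in 0. The Saa1 and Saa2 promoters were identical at 287 of 301 aligned positions (95.3%), so their matches do not count as separate. A match or its absence describes these letters only, and other forms of such sites were not searched.

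The relative size of each cluster was computed from genes listed for more than 1 cluster, since the share of positive cells over the whole table must be the same whichever cluster it is computed from (a positive cell being one whose value for the gene exceeds 0). Hepatocyte1 held 55.6% of the hepatocytes (486 genes) and 49.9% of all cells (1115 genes). Hepatocyte4 held 18.1% of the hepatocytes, Hepatocyte2 14.9%, Hepatocyte3 10.1% and Hepatocyte5 1.47%. The reference for Hepatocyte1 among hepatocytes was therefore made up mostly of Hepatocyte4, Hepatocyte2 and Hepatocyte3 cells. The fit gives no number of cells and no split between PBS and rIL-33.

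Each table lists genes whose mean scaled and log-transformed value was higher in the cluster than outside it, and gives the share of positive cells on either side, here called the share or the detection of the gene. For Hepatocyte1 these measures mostly went opposite ways against other hepatocytes. The 170 genes were 10.6% of the genes listed for any hepatocyte cluster, and 160 of them were detected in a smaller share of Hepatocyte1 cells than of other hepatocytes, 2 in an equal share and 8 in a larger one. The median share was 25.1% inside and 51.3% outside, and the median difference (inside minus outside) was -22.9 percentage points, with a range of -33.8 to 21. Among the rows of the other 4 hepatocyte clusters, 43 of 1933 (2.22%) had the smaller share inside. These were 42 of the 123 rows of Hepatocyte3, 1 of the 880 of Hepatocyte4, and 0 of the 56 of Hepatocyte2 and of the 874 of Hepatocyte5. The median differences there were 33.7 points in Hepatocyte2, 1 point in Hepatocyte3, 33.1 points in Hepatocyte4 and 43 points in Hepatocyte5. The share of positive cells also moves with the number of transcripts counted per cell, which was not analysed here; its part in these differences was not tested.

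**Figure D1:**
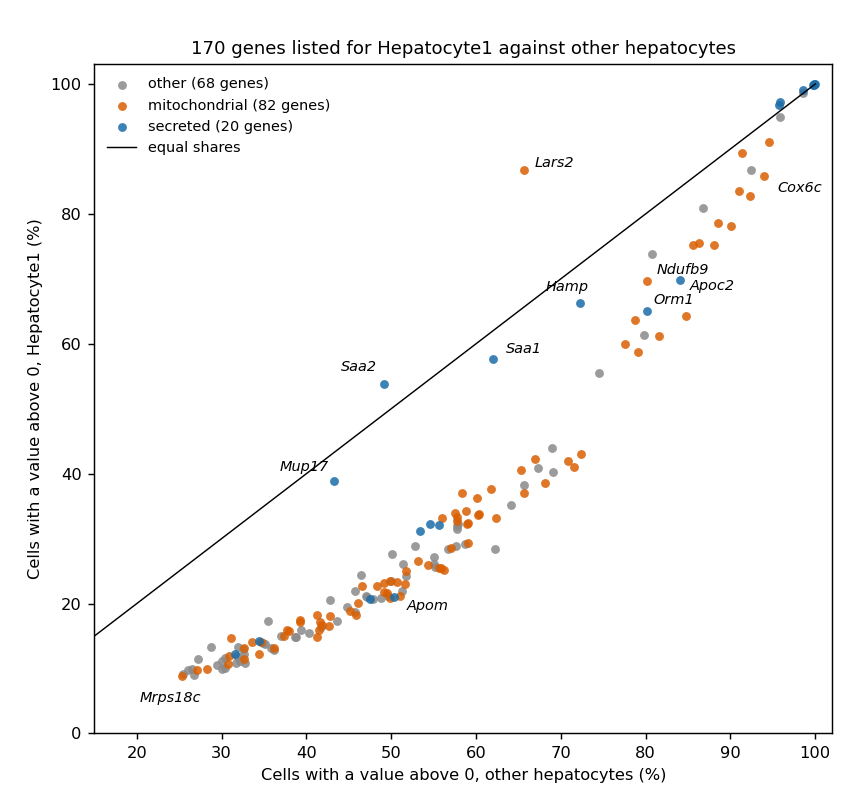
Each point is 1 of the 170 genes listed for Hepatocyte1 against other hepatocytes, placed by the percentage of other hepatocytes (x axis) and of Hepatocyte1 cells (y axis) whose value exceeds 0. Most points lie on a common band under the line of equal shares, with Lars2, Saa2, Saa1, Hamp and Mup17 above that band.

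Of the 4 marker genes, 3 did not lie on the band that most genes formed. Saa2 was detected in 53.8% of Hepatocyte1 cells and 49.1% of other hepatocytes. Across 33 other listed genes with an outside share within 5 points of that of Saa2, the share in Hepatocyte1 ranged from 18.3% to 31.1% with a median of 21.9%. The 4 markers, Lars2 and Mup17 were left out of each other's neighbours, and Lars2 (86.7% inside) would otherwise be a neighbour of Saa1. Saa1 was detected in 57.6% inside and 62.0% outside, while its 25 neighbours in outside share had 28.4% to 42.2% inside. Hamp was detected in 66.2% inside and 72.2% outside, and its 8 neighbours had 38.6% to 55.5% inside. Orm1, with 65.1% inside and 80.1% outside, did not stand apart, since 3 of its 9 neighbours had a larger share inside, the highest of them Ttc36 with 73.8%. With those genes left out, Saa1, Saa2 and Hamp had larger shares in Hepatocyte1 than any of their neighbours. Saa1 and Hamp did not exceed their own share outside. The markers were named from this cluster, so their standing apart is a description and does not test the label. The longest identical run between the aligned Saa1 and Saa2 transcripts was 99 bases and they were identical at 572 of 609 positions (93.9%), but no window of 89 bases (the length of a transcript read) in the last 300 bases of either occurred in another gene's transcript. For Orm1, 32.5% of such windows also occurred in Orm2, so its values are less certain.

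A pair of genes chosen after their values were seen showed the same separation. Lars2, the mitochondrial leucyl-tRNA synthetase (chromosome 9, 123366927 to 123462666, plus strand), had the largest difference of the 170 genes, with 86.7% of Hepatocyte1 cells and 65.7% of other hepatocytes. Its 12 neighbours in outside share had 28.4% to 44.0% inside. In Hepatocyte3, for which Lars2 was also listed, it was detected in 89.6% of cells, and Hepatocyte2, 4 and 5 combined had 58.7%. Mup17, a major urinary protein, was detected in 38.9% of Hepatocyte1 cells and 43.3% of other hepatocytes, and its 29 neighbours had 14.9% to 24.4% inside.

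The secreted proteins made up 20 of the 170 genes and held 7 of the 8 that were detected in more cells inside than outside. Besides Saa2 these were Hp (haptoglobin, which binds free haemoglobin) with 97.2% inside and 95.8% outside, Apoc4 with 96.7% and 95.7%, and Wfdc21, a small secreted protein, with 99.0% and 98.5%. Rbp4, the plasma carrier of retinol, had 99.9% and 99.7%, and Ttr (transthyretin, which carries thyroid hormone and binds Rbp4) had 99.9% and 99.8%. Apoc1 had 100% and 99.9%, and Apoa2, of high-density lipoprotein, was detected in 100% of cells on both sides. Near 100% a share can hardly differ, so these genes say little about direction by this measure.

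Other secreted proteins were detected in clearly fewer Hepatocyte1 cells. Apom, which carries sphingosine-1-phosphate, had 21% inside and 50.3% outside. Apoc2, the cofactor of lipoprotein lipase, had 69.8% and 84.0%. Rarres2 (chemerin) had 20.7% and 47.5%, Ang (angiogenin, a ribonuclease) 32.2% and 54.6%, and Spp2 14.2% and 34.4%. Fgl1, a fibrinogen-like protein induced in the acute phase, had 32.1% inside, 55.6% in the other hepatocytes, and 94.7% in Hepatocyte5, for which it was also listed. Over the 12 acute-phase and other secreted proteins the median was 61.3% inside and 67.1% outside. Apoc1, Apoc4 and Apoc2 lie next to each other on chromosome 7, with 8001 bases between Apoc1 and Apoc4 and 141 between Apoc4 and Apoc2. Apoc2 alone of the 3 had the smaller share inside, but Apoc1 and Apoc4 were near 100%, where a share can hardly differ. For Apoc2, 97.6% of the windows of read length in the last 300 bases also occurred in a transcript of Gm44805, so its value is uncertain. The same measure was 50% or more for 8 of the 169 listed genes with a symbol, namely Apoc2, Cox7c, Eif4ebp3, Mrpl53, Mup1, Mup7, Nme2 and Pam16, whose values are uncertain in the same way.

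Of the major urinary proteins, which bind pheromones and small lipids, Mup1 (31.1% inside, 53.4% outside) and Mup7 (12.3% and 31.6%) were listed besides Mup17. These genes cannot be well told apart: Mup1 and Mup7 transcripts were identical at 98.9% of aligned positions, and 100% of the windows of read length in the last 300 bases of Mup1, 98.6% of those of Mup7 and 11.8% of those of Mup17 occurred in other Mup genes. Their values are uncertain for that reason.

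Genes of mitochondrial proteins were the largest class, with 82 of the 170 (48.2%), of which 81 had the smaller share in Hepatocyte1 and Lars2 the larger. The smaller share was a property of the whole list (94.1% of the 170 genes), and 67 of the 68 genes neither mitochondrial nor secreted had it too. Their median was 25.7% inside and 55.8% outside. Genes of complexes I, III and IV and of ATP synthase with their assembly factors made up 42 of these, and all 42 were detected in fewer Hepatocyte1 cells, with differences of -31.1 to -7.5 points and a median of -23.9, close to the -22.9 of all 170 genes. Complex I, which takes electrons from NADH, held 26 genes, with 12.2% (Ndufaf8, an assembly factor) to 69.7% (Ndufb9) inside and medians of 33.2% inside and 59% outside. Among its members with the lowest differences, Ndufa6 had 41.0% and 71.6%, Ndufb3 29.4% and 59.1%, and Ndufa5 38.6% and 68.1%. The others of complex I were Ndufa1, Ndufa8, Ndufa11, Ndufa12, Ndufa13, Ndufab1, Ndufb2, Ndufb4, Ndufb5, Ndufb7, Ndufb8, Ndufb10, Ndufb11, Ndufc1, Ndufc2, Ndufs3, Ndufs4, Ndufs5, Ndufs6, Ndufs7 and Ndufv2, with shares of 15.7% (Ndufv2) to 43.0% (Ndufc1) inside.

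By their medians, complex III (68.2% inside, 83.6% outside) and complex IV (78.1% and 88.5%) were detected in more cells than complex I, on both sides. Complex III, which passes electrons from ubiquinol to cytochrome c, held Uqcrq (83.5% inside, 91.0% outside), Uqcr10 (75.2% and 88%), Uqcr11 (75.2% and 85.6%), Uqcrh (61.2% and 81.6%) and the assembly factors Uqcc3 (14.1% and 33.6%) and Uqcc2 (10.0% and 28.3%). Complex IV, the cytochrome c oxidase, ranged from Cox6c with 85.8% inside and 94% outside down to Cox17, a copper chaperone needed for its assembly, with 25.1% and 56.2%. Its other members were Cox7c (82.7% and 92.3%), Cox4i1 (78.6% and 88.5%), Cox8a (78.1% and 90.1%), Cox7a2 (64.3% and 84.8%) and Cox6b1 (58.7% and 79.1%). The ATP synthase genes were Atp5e (75.5% and 86.3%), Atp5j2 (60.0% and 77.6%) and the assembly factor Fmc1 (17.1% and 39.2%). In each complex the assembly factors had smaller shares than the subunits on both sides.

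Of the remaining mitochondrial genes, all but Lars2 also had the smaller share inside. The mitochondrial ribosome and translation group held 16 genes, from Mrps18c (8.8% inside, 25.3% outside) to Lars2, and among its ribosomal proteins Mrpl52 had the lowest difference, with 25.4% and 55.9%. Its further members were Mrpl12, Mrpl14, Mrpl20, Mrpl24, Mrpl30, Mrpl33, Mrpl34, Mrpl51, Mrpl53, Mrps14, Mrps24, Mrps33 and Aurkaip1. Protein import and the cristae were represented by 11 genes, from Dnajc15 (10.7% and 30.8%) to Chchd2 (91.0% and 94.5%), with Chchd10 close to the latter at 89.4% and 91.4%. Micos10, of the complex that shapes cristae, had 25.5% and 55.6%, and the group also held Micos13, Timm8b, Timm10b, Timm13, Tomm20, Grpel1 and Pam16. Of the 13 other mitochondrial genes, Mpc2, a subunit of the pyruvate carrier, had the largest share (63.6% inside, 78.7% outside) and Fh1, the fumarase of the citric acid cycle, the smallest (11.4% and 32.6%). Higd1a, a hypoxia-inducible protein of the inner membrane, had 21.2% and 51.0%. Smdt1 of the calcium uniporter, Eci1 of fatty acid oxidation, Fdx1, Hsd17b10, Tmem14c, Prdx5, Smim4, Hint2, Tspo and Bola1 completed this group.

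**Figure D2:**
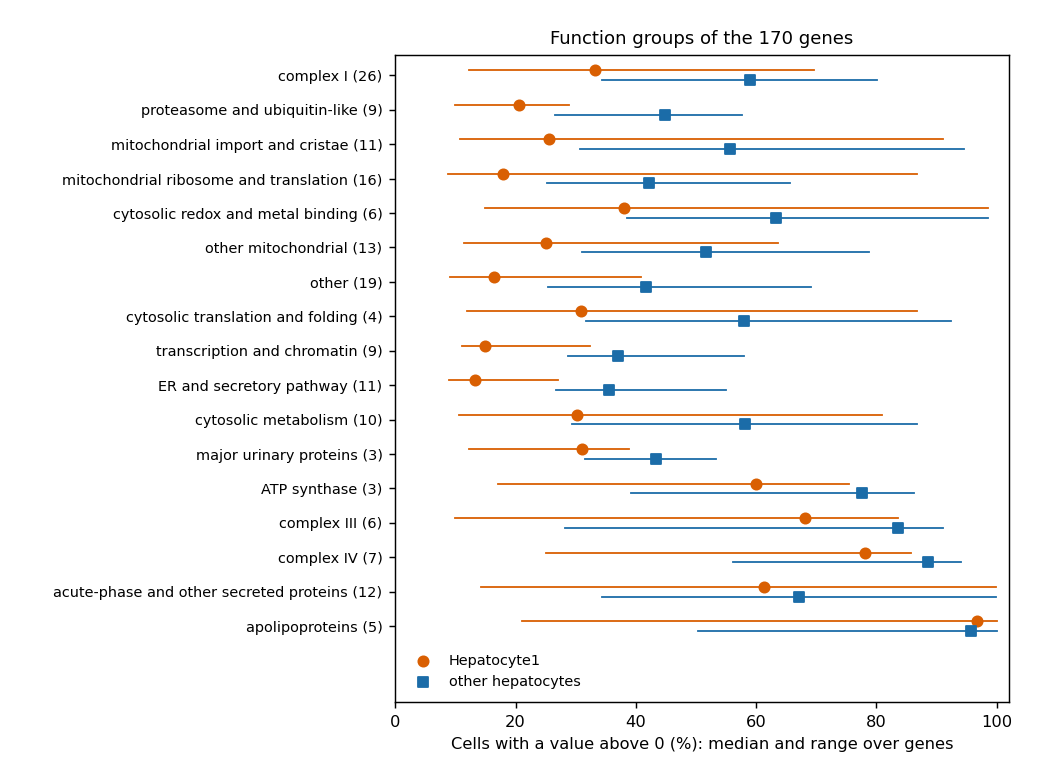
Percentage of positive cells in Hepatocyte1 (circles) and in the other hepatocytes (squares) for the function groups of the 170 genes, with the number of genes in brackets. Symbols are medians over genes and lines run from the lowest to the highest gene. In 16 of the 17 groups the median is smaller in Hepatocyte1, and the apolipoproteins are the exception (96.7% and 95.7%).

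Of the 68 genes that were neither mitochondrial nor secreted, 67 had the smaller share inside and Mt1, a metallothionein that binds zinc and copper, had 98.6% on both sides. Ftl1, the ferritin light chain, was close to equal with 94.9% and 95.8%, and the iron-related Bola2 had 14.9% and 38.6%. The antioxidant genes Txn1 (44.0% and 68.9%), Park7 (31.9% and 57.7%) and Txndc17 (17.3% and 43.6%) had differences close to the median of all 170 genes. Proteasome and ubiquitin-like genes were 9, from Psmc5 (10.0% and 26.5%) to Elob (28.9% and 57.6%), and included the proteasome subunits Psma2, Psma7, Psmb1, Psmb4 and Psmd4, with Nedd8 and Anapc13. In the endoplasmic reticulum and secretory group, 11 genes ran from Mydgf (9.0% and 26.7%) to Ssr4 of the translocon (27.1% and 55%), and the prolyl isomerase Ppib had 21.9% and 51.3%. The group also held Emc6, Fkbp2, Prdx4, Srp14, Psenen, Tmem147, Cnpy2 and Vamp8.

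Transcription and chromatin genes were 9, from Polr2i of RNA polymerase II (11.1% and 32.2%) to the coactivator Edf1 (32.3% and 57.9%), with Eny2, Scand1, Gtf2h5, H2afj, Taf10, Churc1 and Rnaseh2c between them. The 4 genes of cytosolic translation and folding were Eif1 (86.8% and 92.4%), Eif4ebp3 (38.3% and 65.7%), Pfdn5 (23.5% and 50%) and Eif3k (11.9% and 31.8%). Among 10 genes of cytosolic metabolism, Ddt (D-dopachrome tautomerase) had the largest share (80.9% and 86.8%) and Fuom, a fucose mutarotase, the smallest (10.6% and 29.4%). Gchfr, which inhibits GTP cyclohydrolase, had 29.1% and 58.7%, and Mif, a cytokine with tautomerase activity, had 25.7% and 55.2%. Nme2, Hint1, Fabp2, Pgls, G0s2 and Ttc36 were the others. The last 19 genes had mixed or less known roles, from Tmem37 (9.1% and 25.4%), S100a13 (9.8% and 26%) to Ifitm2, an interferon-induced protein (40.8% and 67.3%). They included Krt18, a keratin of hepatocytes, and Bst2, Atp6v1f, Lamtor4, S100a1, Bri3, Tmem256, Tmem205, Tmem160, Mettl26, Rex1bd, Atraid, Llph, Mcrip2 and D8Ertd738e. The row with the lowest difference of all (28.4% and 62.2%) carried a gene name stored as a date (2-Mar) and was matched to no gene.

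The gap between the shares differed along the list with how widely a gene was detected. For 32 genes detected in under 35% of other hepatocytes, the median share in Hepatocyte1 was 11.4%. The 46 genes from 50% to 65% outside had a median of 29% inside, and the 18 genes from 80% to 95% had 76.8%. If transcripts per cell followed a Poisson distribution, such pairs of shares would correspond to a ratio of transcripts detected per cell, inside over outside, with a median of 0.333 in the lowest of these ranges, 0.416 in the middle one and 0.71 in the highest, and of 0.389 over the 166 genes with both shares under 99.5%. The ratio ranged from 0.288 to 1.89 (Lars2) and was 1.14 for Saa2, 0.887 for Saa1, 0.847 for Hamp and 0.652 for Orm1. It concerns transcripts counted, not the scaled mean by which the genes were listed.

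The genes listed for Hepatocyte1 also had short transcripts, a property the listing did not use by name. The longest coding transcript had a median length of 918 nt over 167 of the 170 genes matched by symbol, and 100 of these (59.9%) were shorter than 1000 nt. Over all 1594 matched genes of the hepatocyte table the median was 3117 nt and 8.34% were shorter than 1000 nt. The median was 1240 nt in Hepatocyte2 and 1364 nt in Hepatocyte3, with 27.3% and 30.9% of their genes under 1000 nt, and 3431 nt and 3611 nt in Hepatocyte4 and Hepatocyte5, with 0.458% and 0.577%. With older symbols matched too, the median was 916 nt for the 82 mitochondrial genes, 861 nt for the 20 secreted proteins and 937 nt for the 67 others, so short transcripts were not a property of 1 function group. The shortest was that of Hamp (410 nt) and the longest that of Dnajc15 (6193 nt). These lengths are of annotated transcripts, and the part of length in the listing was not tested.

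**Figure D3:**
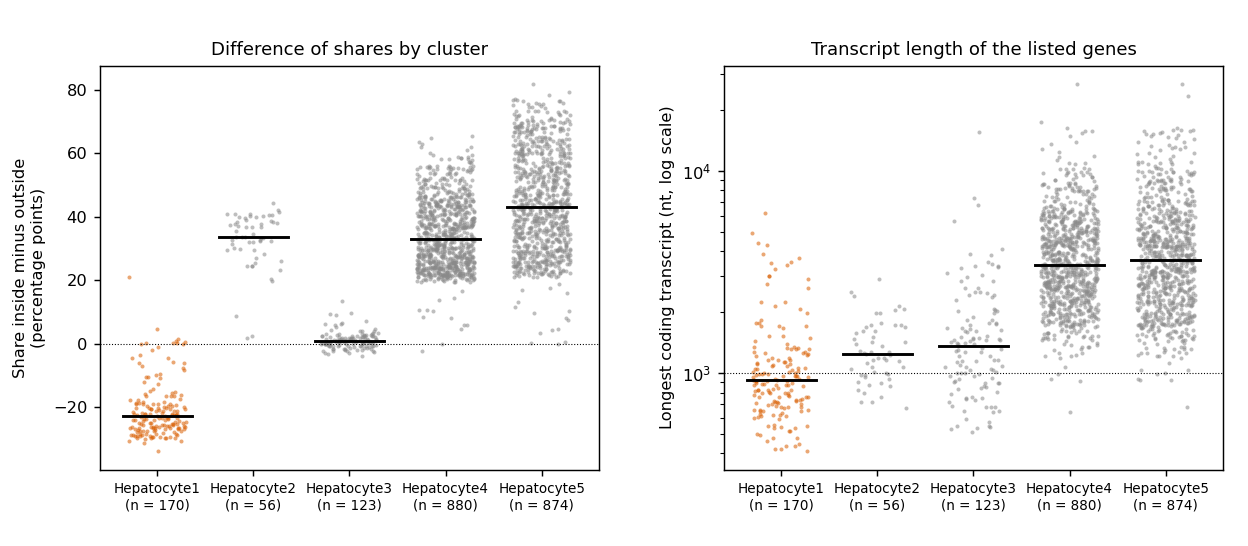
Left, the percentage of positive cells inside the cluster minus that outside it (percentage points) for each gene listed for the 5 hepatocyte clusters; right, the longest coding transcript (nt, log scale, dotted line at 1000 nt) of the genes that matched by symbol. Points are genes, with n rows listed per cluster, and lines are medians. Hepatocyte1 is the cluster whose median difference is below 0 (-22.9 points), and its median length of 918 nt is the shortest of the 5.

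Most Hepatocyte1 genes were listed for no other hepatocyte cluster: leaving out the row with a date for a name, 129 were listed for Hepatocyte1 alone and 40 for another cluster too. The share listed for 1 cluster alone was 76.3% here, 50.1% to 65.9% in the other 4 clusters, and 69.7% of the 1604 genes of the table. Hepatocyte3 shared 27 genes (15.9% of the Hepatocyte1 genes and 22% of its own), Hepatocyte2 shared 14 (8.24% and 25%), Hepatocyte5 shared 5 (2.94% and 0.572%) and Hepatocyte4 shared 0. Of all genes in the table, 7.64% were listed for Hepatocyte3, 3.48% for Hepatocyte2, 54.3% for Hepatocyte5 and 54.7% for Hepatocyte4. All 14 genes shared with Hepatocyte2 were detected in more cells there, by 24 to 48.3 points with a median of 44.8. In Hepatocyte3, 26 of 27 had the larger share, by a median of 11.9 points, with Chchd10 as the exception at -0.8. The 5 genes shared with Hepatocyte5 were Fgl1, Hp, Mup1, Mup7 and Tmem37, all with the larger share in Hepatocyte5. For example, Ndufs7 was detected in 22.7% of Hepatocyte1 and 69.9% of Hepatocyte2 cells, Uqcrh in 61.2% of Hepatocyte1 and 67.8% of Hepatocyte3 cells, and Mup1 in 31.1% of Hepatocyte1 and 84.8% of Hepatocyte5 cells. For Hepatocyte2 and Hepatocyte5 the direction was nearly set by the rows as a whole. The smaller share inside was found in 160 of 170 Hepatocyte1 rows, and the larger in all 56 of Hepatocyte2 and 873 of 874 of Hepatocyte5.

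For the 6 genes listed for Hepatocyte1, Hepatocyte2 and Hepatocyte3 alike, the share in Hepatocyte4 and Hepatocyte5 together could be computed from the cluster sizes. Park7, an antioxidant protein, was detected in 31.9% of Hepatocyte1, 45.1% of Hepatocyte3, 77.6% of Hepatocyte2 and 49% of Hepatocyte4 and 5 cells. Prdx5, a mitochondrial peroxiredoxin, had 37.7%, 51.4%, 82.7% and 51.3% in the same order. Edf1 had 32.3%, 46.3%, 78.2% and 48.4%, Scand1, a SCAN domain protein, 28.9%, 40.1%, 77.2% and 40.8%, and Nme2, a nucleoside diphosphate kinase, 55.5%, 65.1%, 92.2% and 65.9%. In these 5 genes Hepatocyte1 had the smallest share and Hepatocyte2 the largest, and Hepatocyte3 and the remaining clusters lay within 4 points of each other. Ttc36 differed in order, with 73.8% in Hepatocyte1 and 68.9% in Hepatocyte4 and 5.

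**Figure D4:**
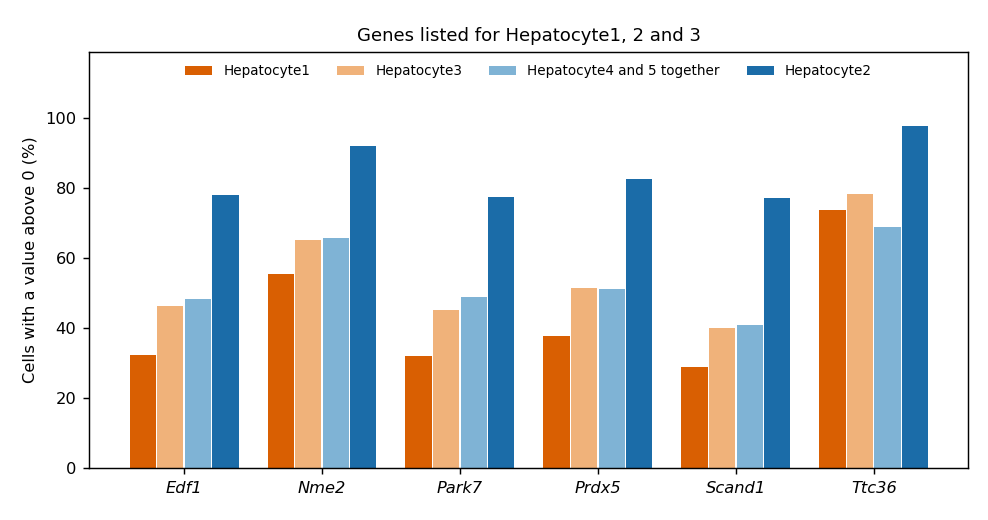
Percentage of positive cells for the 6 genes listed for Hepatocyte1, Hepatocyte2 and Hepatocyte3, with the value for Hepatocyte4 and Hepatocyte5 together computed from the cluster sizes; bars are single pooled values and have no error. The bar of Hepatocyte1 is the lowest for Edf1, Nme2, Park7, Prdx5 and Scand1, and for Ttc36 it is above that of Hepatocyte4 and 5.

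Gene lists put the 170 genes beside the other clusters. Of the respiratory chain and ATP synthase list, 57 genes had any row in the hepatocyte table. Of these, 38 (66.7%) had a Hepatocyte1 row, beside 10.6% of all genes. Hepatocyte3 had 18 of the 57, beside 7.64% of all genes, and Hepatocyte2 had 7, beside 3.48%. Both thus also held a larger part of this list than of all genes. Hepatocyte4 had 4 and Hepatocyte5 had 1, beside 54.7% and 54.3% of all genes. The acute-phase list had 29 genes in the table, of which 8 (27.6%) were listed for Hepatocyte1 (Fgl1, Hamp, Hp, Mt1, Orm1, Saa1, Saa2 and Ttr), 13 for Hepatocyte4 and 19 for Hepatocyte5, clusters that held 54.7% and 54.3% of all genes. This list was not split by whether the production of a protein rises or falls in the acute phase, so its counts describe no direction. The ubiquitin and proteasome list had 8 of 15 for Hepatocyte1, the apolipoproteins 5 of 12, the iron and metals list 5 of 14, the glutathione and antioxidant list 4 of 20, the major urinary proteins 3 of 8 and the protein folding and ER entry list 3 of 18. For Hepatocyte2 and Hepatocyte3 the ubiquitin and proteasome list had 6 each, the glutathione and antioxidant list 4 and 12, and the iron and metals list 0 and 5. These lists were thus not particular to Hepatocyte1. The apolipoproteins, major urinary proteins and protein folding and ER entry list had 0 in both. Urea cycle and amino acid catabolism (1 of 34, Ttc36), fatty acid oxidation and ketogenesis (1 of 15, Eci1) and the periportal genes (1 of 27, Apoc2) had 1 Hepatocyte1 gene each, or 2.94%, 6.67% and 3.7%. The cytochrome P450 genes (0 of 31), complement and coagulation (0 of 39), pericentral genes (0 of 13) and gluconeogenesis (0 of 5) held none in the hepatocyte table. Beside 10.6% of all genes, counts of 0 or 1 in the shorter of these lists are near the share over the whole table and do not show a lack of such genes. The paper reported that Glul, on the pericentral list, was higher in Hepatocyte1 and Hepatocyte2 than in the other hepatocyte clusters. Glul had no row in the hepatocyte table, so the count of 0 of 13 does not cover it. Cytosolic ribosomal proteins and immunoglobulin chains had no row in that table.

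Against all other cells, 31 genes were listed for Hepatocyte1, 1.77% of the genes listed for any of the 12 clusters. By the fitted sizes, hepatocyte clusters made up 90% of all cells and Hepatocyte1 49.9%. The reference leaves out Hepatocyte1, so it was still mostly hepatocytes but richer in other cell types than the whole table. The part of these cell types in the differences below was not tested. The share inside Hepatocyte1 was larger here than in the hepatocyte table for 10 of the 10 genes listed in both, as given after these values, so the levels of both tables are not comparable. Of the 31 genes, 21 had the larger share inside and 10 the smaller, with a median difference of 2.3 points. In the rows of the other 11 clusters, 219 of 3711 (5.9%) had the smaller share inside. The 10 genes of the acute-phase list among the 31 all had the larger share in Hepatocyte1 than in all other cells together. Saa1 was at 99.2% inside and 93.5% outside, Saa2 at 98.7% and 92.4%, Hamp at 82.9% and 78.8%, and Orm1 at 90.3% and 84.9%. Hp had 99.5% and 94.1%, Hpx (hemopexin, which binds haem) 97.5% and 90.0%, Fgb (fibrinogen beta chain) 96.4% and 90.2%, C3 (complement component) 98.1% and 92.5%, Ahsg (fetuin-A) 95.2% and 90.1%, and Ambp (the precursor of bikunin) 80.6% and 78.3%. Of these 10, Hp, Hpx, Fgb, C3, Ahsg and Ambp were also listed for Hepatocyte5, each detected in 100% of its cells. Hepatocyte4 also had rows for Fgb (99.7%), C3 (99.9%), Ahsg (99.7%) and Ambp (96.4%), again above Hepatocyte1. Saa1, Saa2, Hamp and Orm1 were listed for Hepatocyte1 alone in this table. Among apolipoproteins Apoa1, the main protein of high-density lipoprotein, had 100% and 96.8%, Apoc3 98.3% and 93%, Apoh 83.6% and 81.9%, and Apoc2 82.1% and 82.0%.

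The enzymes in this table were split. Cyp2e1, a pericentral cytochrome P450, had 95.4% inside and 89.6% outside. Ttc36, a tetratricopeptide repeat protein, had 83.6% and 79.8%. Detected in fewer Hepatocyte1 cells were Cyp2d9 (31.8% and 54.8%), the esterase Aadac (14.3% and 29.5%), Asl of the urea cycle (58.5% and 71.4%), Rida, a deaminase of reactive intermediates (71.4% and 77.7%), Sds, the serine dehydratase (57.0% and 61.3%), and Cyp3a11 (77.8% and 78.1%). Protein C (Proc, an anticoagulant protease) had 38.5% and 46.7%, and the endoplasmic reticulum proteins Fkbp2 and Prdx4 had 29.7% and 48.6%, and 51.4% and 60.2%. Of the major urinary proteins, Mup9 (42.0% and 39.7%), Mup17 (39.1% and 36.9%) and Mup21 (32.1% and 29.3%) had the larger share inside and Mup12 (13% and 25.1%) the smaller. Of the windows of 89 bases in the last 300 bases of the transcript, 51.4% in Mup9, 76.4% in Mup12 and 11.8% in Mup17 also occurred in other genes, so the values of Mup9 and Mup12 in particular are uncertain. The Hepatocyte1 rows of this table held 0 genes of the respiratory chain and ATP synthase list, 2 of which had any row in it.

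**Figure D5:**
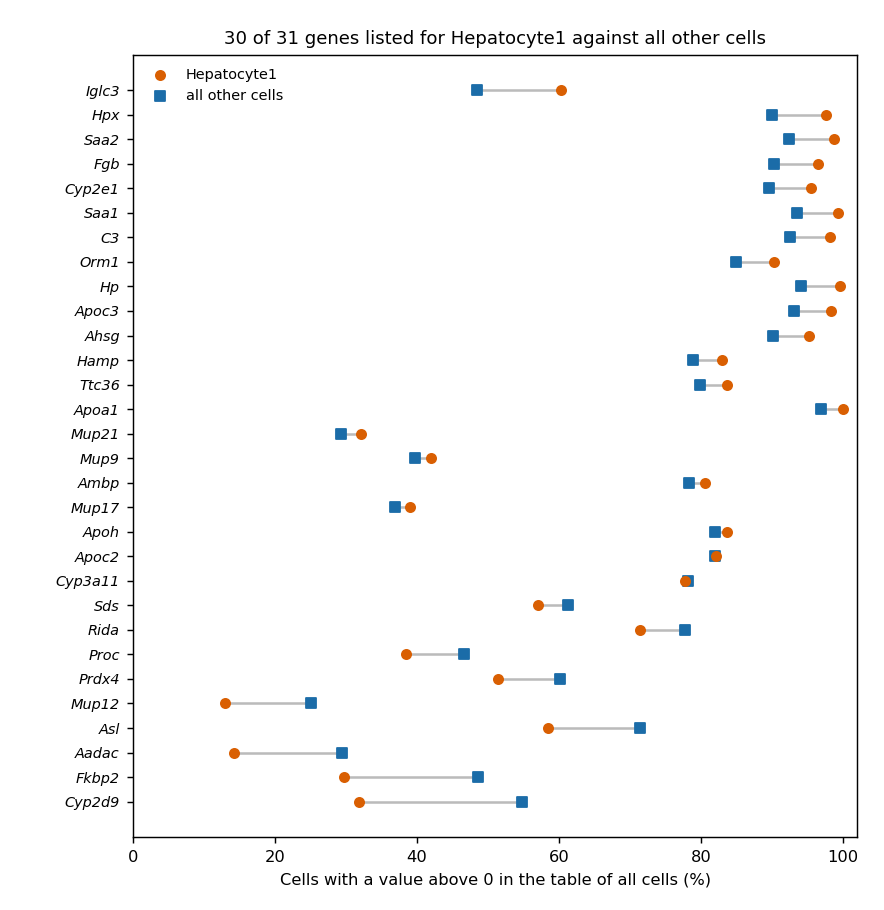
Percentage of positive cells in the table of all cells for 30 of the 31 Hepatocyte1 genes, in Hepatocyte1 (circles) and in all other cells (squares), ordered by the difference. The 10 acute-phase genes have the larger share in Hepatocyte1, by 2.3 points (Ambp) to 7.5 points (Hpx), and Cyp2d9 has the lowest difference (-23.0 points).

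The shares of the tables cannot be set side by side. Saa2 had 98.7% of Hepatocyte1 cells in the table of all cells and 53.8% in the hepatocyte table, although the cluster is the same, and Saa1 had 99.2% and 57.6%. All 10 genes listed for Hepatocyte1 in both tables had the larger share in the table of all cells, by 0.2 (Mup17) to 44.9 points (Saa2), with a median of 14.6. Over 825 pairs of gene and hepatocyte cluster in both tables, 704 were larger in the table of all cells, 104 equal and 17 smaller. The values above 0 in the table of all cells may thus not be counted transcripts, and its shares of Saa1, Saa2 and other plasma protein genes in cells other than Hepatocyte1 were not read as expression there. The direction differed between the tables for 6 of the 10 genes, among them Saa1, Hamp and Orm1, which had the larger share inside against all other cells and the smaller one against other hepatocytes.

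Of the 21 genes listed for Hepatocyte1 against all other cells alone, 17 were listed in the hepatocyte table for another cluster: 13 for Hepatocyte5, 6 for Hepatocyte4, 2 for Hepatocyte2 and 1 for Hepatocyte3. Among hepatocytes C3 was detected in 95.5% of Hepatocyte4 and 100% of Hepatocyte5 cells, with 75.8% outside Hepatocyte4, and Proc in 97.4% of Hepatocyte5 cells with 26.9% outside it. The other 4 (Apoc3, Asl, Cyp2e1 and Iglc3) had no row there. Thus these genes were listed for Hepatocyte1 against all other cells without being listed for it among hepatocytes.

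Markers of other cell types were checked as a list. The 42 markers were of Kupffer cells, neutrophils, B cells, T cells, endothelial cells, red blood cells, stellate cells, cholangiocytes and damaged cells. Damaged cells were represented by 2 markers alone, Malat1 and Neat1. Mitochondrially encoded genes (symbols that start with mt-) were planned as markers of damage but left out of the 42. They were searched as part of the respiratory chain and ATP synthase list, and none had a row in either table. Their level in Hepatocyte1 is therefore unknown. Of the 42 markers, 0 were listed for Hepatocyte1 in either table, but 29 had any row in the table of all cells and 1 in the hepatocyte table. With 1.77% of all genes listed for Hepatocyte1 against all other cells, a count of 0 among 29 is near the overall share. Of the markers of hepatocytes in general, 1 of 8 was listed in each table, Ttr among hepatocytes and Apoa1 against all other cells. Iglc3, an immunoglobulin light chain constant region, was not in this list and was chosen after its values were seen. It was at 60.3% in Hepatocyte1 and 48.4% in all other cells, and at 66.8% in B cells and 54.1% outside them. The B cell markers Cd79a, Cd79b, Ms4a1, Ighm and Igkc had no Hepatocyte1 row. The part of immunoglobulin RNA from other cells in this value was not tested.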

How the data were processed

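Hepatocytes were prepared after PBS or rIL-33, with 1 library per condition (10x Genomics 3ʹ v3.1 chemistry, 2 libraries), which the authors aligned to mm10 and counted with Cell Ranger (per the labels). With Seurat (3.1.2 and 4.0.4) they removed cells with under 200 or over 3000 genes or over 50% mitochondrial genes, normalised counts to 10000 per cell on a natural log scale, clustered at resolution 5 on 50 principal components, named the clusters and listed genes with FindAllMarkers. No doublet caller was run here; the limit of 3000 genes was set by the authors against doublets.

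As deposited, a fraction is the authors' share of positive cells (value over 0) inside or outside a cluster, pooled over both libraries and printed as percentages. Rows reach 25% on at least 1 side. The deposited fold changes and p-values are the authors' own comparisons and were not used, beyond noting that the fold changes are positive in every row, so each listing is for a higher mean. Depth is unknown.

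Cluster sizes came from least squares on genes listed for more than 1 cluster, and were checked on simulated shares of known sizes. Function groups (17 in the hepatocyte table) were assigned by hand after the lists were seen. The members and gene lists were chosen with earlier results of these data known. Every listed gene could be named, with both shares for the 4 markers, the table of all cells, the 10 largest and 10 lowest differences, rows just over the 25% limit, and the extremes of each group. Identity between near-identical genes was taken from GENCODE M21 transcripts in place of the planned proteins, and 190 of 190 symbols were matched. The planned share of cells other than hepatocytes was not computed, because the tables gave different shares for the same cells. Python 3.11.15, NumPy 2.4.6, pandas 2.3.3, SciPy 1.17.1, Biopython 1.88 and Matplotlib 3.10.9 were used. Values of 1 gene listed against all other cells are not reported here; it stays in the counts and medians.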

Additional observations from a re-analysis of the deposited data

How the results depend on the processing

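The share of hepatocytes held by Hepatocyte1 was 55.6% with rows at least 10 points apart and with least absolute deviations, and 55.5% from the table of all cells. Its share of all cells was 50% with least absolute deviations. Genes with the smaller share in Hepatocyte1 numbered 159 and 155 when a difference of at least 1 or 5 points was required, and 10 in the table of all cells. The median difference was -24.2 points for rows with a share of at least 50% on either side, and turned to 2.3 points in the table of all cells, which compares with other cells and holds other genes. Listed respiratory chain and ATP synthase genes numbered 14 when at least 50% of Hepatocyte1 cells had to be positive, and 0 in the table of all cells. Listed acute-phase genes numbered 7 and 10. Of the 15 other lists, 9 held a Hepatocyte1 gene, and 4 of these stayed within 1.5 times under the 50% limit and 4 in the table of all cells. The other 6 held none, so the 50% limit could not change them. In the table of all cells, only 2 of these 6 lists still held none. Moving shares within their rounding changed the share of the remaining clusters by at most 0.2 points. The planned share in cells other than hepatocytes and its alternatives were not run, because Hepatocyte1 shares of the same gene differed between the tables. No paired analysis was possible because each condition had 1 library and no value was split by library. Unknown depth limits every share.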
